A study of Mus musculus with 24 samples.

Results

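Elastic fibres are the stretchable component of the extracellular matrix, and the genes described here are the 10 that code for elastin (Eln), the fibrillins (Fbn1, Fbn2), the fibulins (Fbln1, Fbln2, Fbln5, Efemp1, Efemp2) and the lysyl oxidases that crosslink elastin (Lox, Loxl1). They were found by symbol in a table of 22053 protein-coding gene entries, in which each of the 10 had a row, and all 10 passed the filter on low values (FPKM of 1 or more in at least 4 libraries) that left 11767 genes to test. FPKM counts sequenced fragments in proportion to transcript length and to the size of the library, and as a level per length it lets different genes be set side by side.

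RNA came from cells that were sorted from bones of male mice on postnatal day 10 as CD45- Ter119- CD31- Thy1- 6C3- CD200+ CD105- and then split by embigin (EMB), a cell surface glycoprotein. The 6 groups, with 4 libraries each, were EMB+ and EMB- cells from each of 3 sources: GFP+ cells of the vertebrae, GFP- cells of the vertebrae and cells of long bone. GFP+ stands for vertebral cells positive for the Zic1-Cre lineage. Cre is driven there by the promoter of Zic1, a transcription factor of the embryonic somite, so GFP+ cells are those in which this promoter was active at some time. Long bone cells, from femur and tibia, were GFP-. The labels give the genotype of all groups as WT and do not name the reporter allele, and whether a library holds cells of a single mouse or of several is not given in the sources used here. Since the sort selects a narrow set of surface markers, all levels are those of that fraction, not of the bone.

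Elastic fibres form when tropoelastin, the soluble product of Eln, is laid onto a scaffold of fibrillin microfibrils. Fibulins bring tropoelastin, microfibrils and lysyl oxidases together, and the copper enzymes Lox and Loxl1 then oxidise lysine side chains so that elastin molecules crosslink. In the skeleton these fibres and their microfibrils are known from ligament, perichondrium, periosteum and the annulus of the intervertebral disc, while hyaline cartilage holds microfibrils with little elastin.

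Emb was at 30.1 to 56.5 FPKM in the 12 EMB+ libraries and at 0.238 to 1.32 FPKM in the 12 EMB- libraries. Zic1 was at 0.349 to 2.39 FPKM in the GFP+ libraries, at 0 to 0.108 FPKM in the vertebral GFP- libraries and listed at 0 in all long bone libraries. Cd200 was at 88.4 to 563 FPKM throughout, while Thy1 (at most 0.10 FPKM), Ptprc (CD45, at most 1.80), Enpep (6C3, at most 1.76), Eng (CD105, at most 3.40) and Pecam1 (CD31, at most 4.05) were low. Titles of the 4 vertebral GFP- EMB+ libraries name another population than their cell type labels do. They were grouped by the cell type labels, and their Emb levels (44.4 to 55.3 FPKM) were those of EMB+ libraries. Replicate 4 of long bone EMB- stands apart, with a lowest correlation of 0.925 to its group across genes, against 0.970 or more among the other libraries of any group. Its skeletal muscle markers summed to 832 FPKM, against 355 to 522 FPKM in the other 3 libraries of its group and at most 104 FPKM in every other group. Erythroid markers, such as the globins, summed to 20123 to 42326 FPKM in long bone EMB- and 7256 to 12334 FPKM in vertebral GFP- EMB- libraries, against at most 977 FPKM in every other library. Their part in the results below was not tested. Deposited FPKM carry no read depth, so the depth behind each value is unknown.

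The contrast of EMB+ with EMB- cells asks how the elastic fibre genes differ between cells with and without embigin at each site. In vertebral GFP+ cells 7 of the 10 genes were lower in EMB+ cells and 0 were higher at an adjusted p under 0.05 (limma, Benjamini-Hochberg over all genes tested). The background there was 50.0% of all genes called, of which 42.1% of all genes were higher and 7.85% lower. In vertebral GFP- cells 3 were lower (Eln, Fbn1, Efemp1) and 2 higher (Fbn2, Fbln1), against a background of 52.3% (41.7% higher, 10.6% lower). In long bone cells 5 were lower (Eln, Fbn1, Fbln2, Fbln5, Efemp1) and 2 higher (Fbln1, Efemp2), against 33.5% (17.5% higher, 16% lower). In such bulk samples fewer cells that express a gene and less of its RNA per cell cannot be told apart. Eln and Fbn1 were the 2 genes lower in EMB+ cells in all 3 comparisons. Counted by libraries that do not overlap, 8 of the 10 were lower and 0 higher in GFP+ cells (8.15% and 42.5% of all genes), 3 lower and 1 higher in vertebral GFP- cells (10.5% and 41.0%), and 4 lower and 2 higher in long bone cells (12.1% and 12.5%). The median difference over the 10 genes was -0.77, -0.20 and -0.48 in log2(FPKM + 1), in the order vertebral GFP+, vertebral GFP- and long bone, beside 0.32, 0.30 and 0.08 over all genes tested.

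Most called genes in the vertebral contrasts were higher in EMB+ cells, a general shift that depends on how libraries are scaled. Dividing each library by its median ratio to the other libraries brought the median difference of all genes to 0.01 in vertebral GFP+ and -0.03 in vertebral GFP- cells. The called genes were then 1523 higher and 1725 lower in GFP+ cells, against 4959 higher and 924 lower as deposited, and 1805 higher and 2322 lower in GFP- cells, against 4903 and 1251. Quantile normalization gave 1726 higher and 1603 lower in GFP+ cells and 2337 and 2003 in GFP- cells. In long bone cells the split was 2063 higher and 1879 lower as deposited, 1434 and 2157 with median-ratio scaling and 2680 and 1811 with quantile normalization. Under either of these scalings all 10 elastic fibre genes were lower in EMB+ cells of the GFP+ lineage, and 6 were lower and 0 higher in those of the vertebral GFP- fraction.

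**Figure D1:**
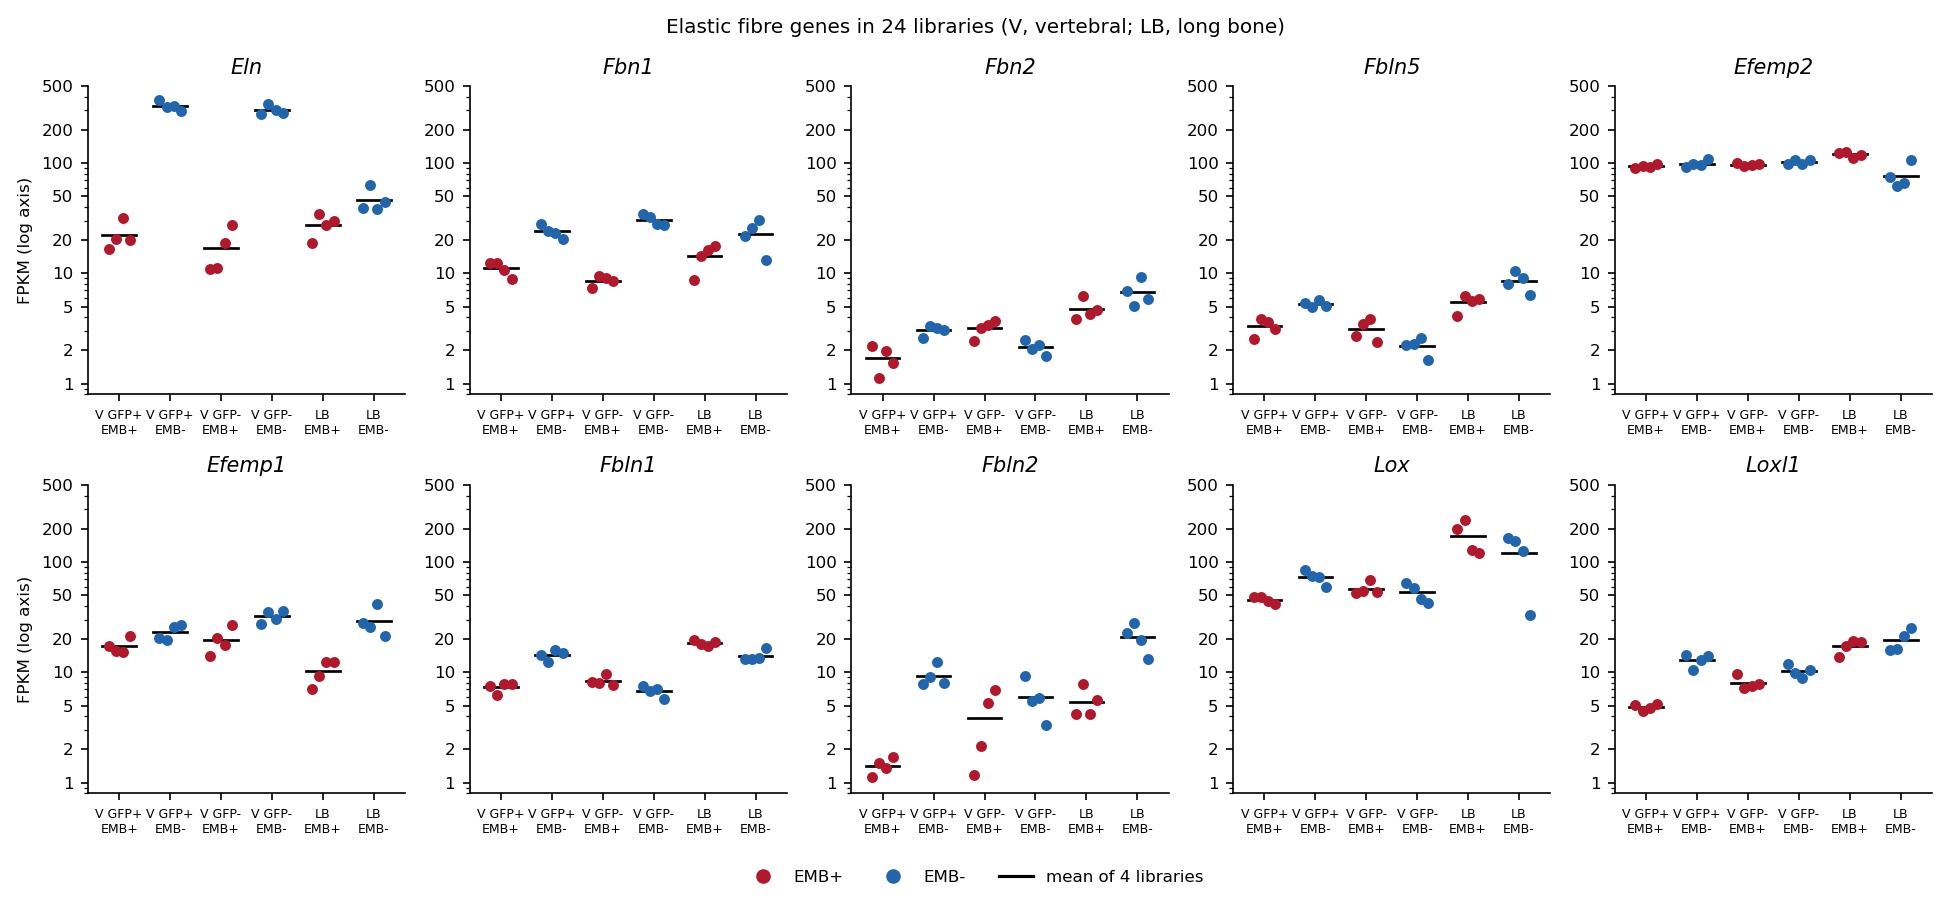
FPKM of each elastic fibre gene in the 24 libraries, on a log axis. Points are libraries (red, EMB+; blue, EMB-), bars are means of 4 libraries, and groups run from vertebral GFP+ through vertebral GFP- to long bone. Eln of vertebral EMB- cells stands far above its level in every other group, while Efemp2 moves little.

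Eln codes for tropoelastin, the bulk of the mature fibre. It had 16.7, 20.4, 31.6 and 20.3 FPKM in vertebral GFP+ EMB+ libraries, against 376, 323, 332 and 298 FPKM in vertebral GFP+ EMB- libraries. In vertebral GFP- cells Eln was at 10.9, 11.3, 19.0 and 27.4 FPKM in EMB+ libraries and at 281, 342, 303 and 287 FPKM in EMB- libraries. Long bone libraries had 18.8, 34.6, 27.7 and 29.6 FPKM in EMB+ cells and 39.3, 63.2, 38.6 and 44.6 FPKM in EMB- cells. Thus the 8 vertebral EMB- libraries are all high, every other library is low, and at each site the EMB+ and EMB- libraries do not overlap.

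Mean Eln was 14.9-fold lower in EMB+ than in EMB- cells of the vertebral GFP+ lineage (log2 difference -3.87 ± 0.23 SE, adjusted p = 1.0e-12, limma). It was 17.7-fold lower among vertebral GFP- cells (-4.16 ± 0.23, adjusted p = 1.7e-13). Among long bone cells it was 1.68-fold lower (-0.73 ± 0.23, adjusted p = 0.015), a call lost without long bone EMB- replicate 2 (adjusted p = 0.068) or long bone EMB+ replicate 1 (adjusted p = 0.073). The EMB difference itself was larger in size in vertebral GFP- than in long bone cells, by -3.43 ± 0.32 on the log2 scale (adjusted p = 2.1e-08). Between GFP+ and GFP- vertebral cells it differed by 0.28 (95% interval -0.39 to 0.96, adjusted p = 0.76). In the order of group means, vertebral GFP+ EMB- (332 FPKM) and vertebral GFP- EMB- (303 FPKM) overlap. Long bone EMB- (46.4 FPKM) lies apart from both and from long bone EMB+ (27.7 FPKM). Among the 3 EMB+ groups, long bone overlaps with vertebral GFP+ (22.3 FPKM), and vertebral GFP+ with vertebral GFP- (17.2 FPKM).

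Fbn1 codes for fibrillin-1, the main microfibril protein after birth, which is mutated in Marfan syndrome. It had 12.3, 12.3, 10.8 and 8.97 FPKM in vertebral GFP+ EMB+ libraries, against 28.0, 24.2, 23.4 and 20.7 FPKM in vertebral GFP+ EMB- libraries. In vertebral GFP- cells it was at 7.32, 9.39, 8.99 and 8.50 FPKM in EMB+ and at 34.7, 32.2, 27.7 and 27.5 FPKM in EMB- libraries. Long bone EMB+ libraries had 8.69, 14.4, 16.3 and 17.6 FPKM, and long bone EMB- libraries 21.6, 25.8, 30.6 and 13.1 FPKM. The vertebral groups are separate, whereas in long bone replicate 4 of EMB- falls among the EMB+ libraries.

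Fbn1 was 2.17-fold lower in vertebral GFP+ EMB+ than EMB- cells (-1.05 ± 0.20, adjusted p = 1.1e-04, limma) and 3.57-fold lower in vertebral GFP- cells (-1.72 ± 0.20, adjusted p = 9.2e-08). In long bone it was 1.60-fold lower (-0.62 ± 0.20, adjusted p = 0.016). Without long bone EMB- replicate 4 the long bone difference was -0.85 (adjusted p = 2.1e-04). It was no longer called without long bone EMB- replicate 2 (adjusted p = 0.052) or 3 (0.070), without long bone EMB+ replicate 1 (0.090), or in a fit of the 2 long bone groups alone (0.15). The EMB difference in Fbn1 was larger in size in vertebral GFP- than in long bone cells (-1.10 ± 0.28, adjusted p = 0.0042).

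Fbn2 codes for fibrillin-2, known mainly from developing tissues, and ran low at 1.13 to 9.32 FPKM. It had 2.18, 1.13, 1.97 and 1.53 FPKM in vertebral GFP+ EMB+ libraries and 2.59, 3.36, 3.19 and 3.05 FPKM in vertebral GFP+ EMB- libraries. In vertebral GFP- cells the order turned round, with 2.44, 3.21, 3.40 and 3.72 FPKM in EMB+ and 2.51, 2.05, 2.22 and 1.79 FPKM in EMB- libraries. Long bone libraries were the highest, at 3.87, 6.26, 4.26 and 4.69 FPKM in EMB+ and 6.87, 5.07, 9.32 and 5.87 FPKM in EMB- cells.

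Fbn2 was therefore lower in EMB+ cells of the GFP+ lineage (-0.60 ± 0.16, adjusted p = 0.0046, limma) and higher in EMB+ cells of the vertebral GFP- fraction (0.41 ± 0.16, adjusted p = 0.039). The EMB difference itself was lower in GFP+ than in GFP- cells by -1.01 ± 0.23 (adjusted p = 0.0079). The higher level in GFP- EMB+ cells was not called with median-ratio scaling (0.12, adjusted p = 0.64), with quantile normalization (0.24, adjusted p = 0.28), or without any of vertebral GFP- EMB- replicates 2, 3 and 4 and vertebral GFP- EMB+ replicates 2, 3 and 4 (adjusted p from 0.058 to 0.11). In long bone the difference of -0.42 missed the threshold (adjusted p = 0.051) and passed it without long bone EMB- replicate 4 (-0.47, adjusted p = 0.035), long bone EMB- replicate 2, long bone EMB+ replicate 2, vertebral GFP+ EMB+ replicate 1 or 2 or vertebral GFP- EMB+ replicate 1 (adjusted p from 0.019 to 0.050).

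**Figure D2:**
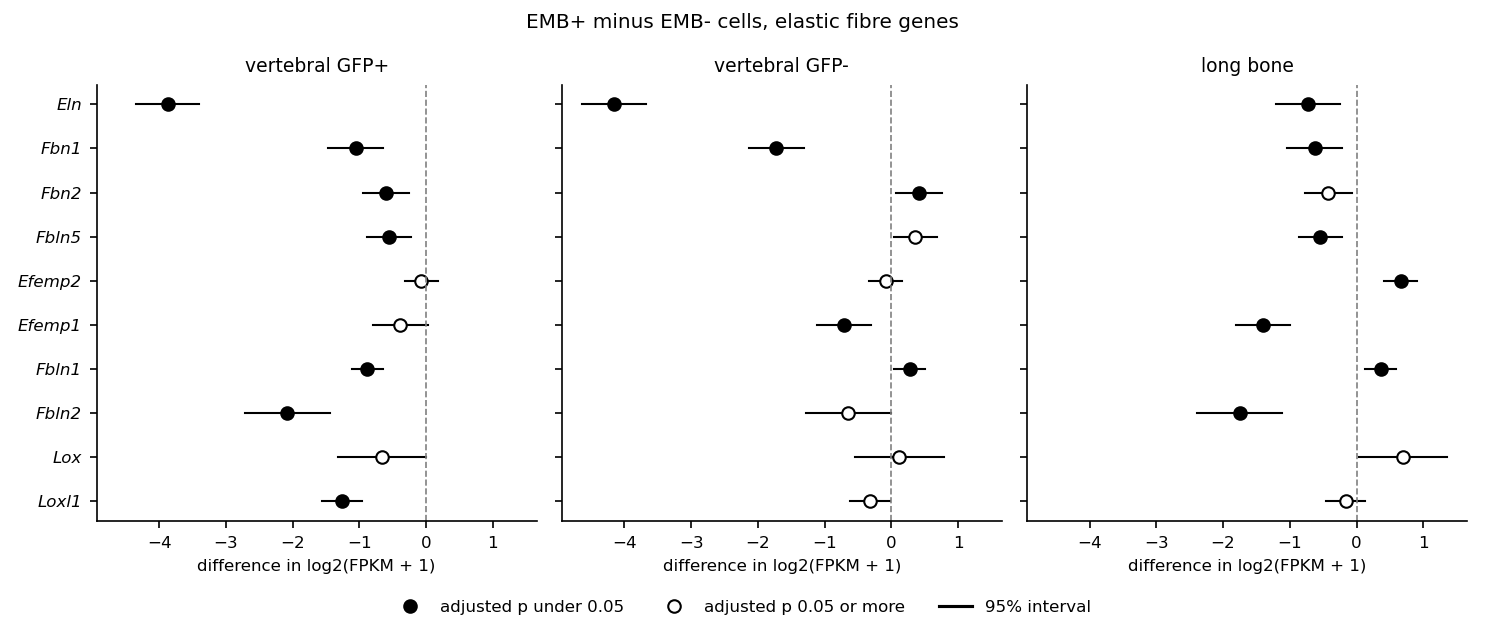
Differences between EMB+ and EMB- cells in log2(FPKM + 1) for the 10 genes, in vertebral GFP+, vertebral GFP- and long bone cells from left to right. Points left of the dashed line are lower in EMB+ cells, lines are 95% intervals, and filled points passed the adjusted p threshold of 0.05. Eln lies at -3.87 and -4.16 in the vertebral panels and at -0.73 in long bone.

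Fbln5 (fibulin-5) and Efemp2 (fibulin-4) are the fibulins that mice need for elastic fibre assembly; fibulin-4 brings Lox to tropoelastin. Fbln5 had 2.56, 3.89, 3.62 and 3.15 FPKM in vertebral GFP+ EMB+ libraries and 5.41, 4.97, 5.76 and 5.02 FPKM in vertebral GFP+ EMB- libraries. Its levels in vertebral GFP- cells were 2.73, 3.49, 3.83 and 2.39 FPKM in EMB+ and 2.22, 2.28, 2.61 and 1.65 FPKM in EMB- libraries. Long bone EMB+ cells had 4.13, 6.25, 5.57 and 5.89 FPKM, and long bone EMB- cells 8.0, 10.5, 9.03 and 6.32 FPKM. Hence EMB+ libraries were below EMB- libraries without overlap in the GFP+ lineage and in long bone, and overlapped in vertebral GFP- cells.

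Fbln5 was lower in EMB+ cells of the GFP+ lineage (-0.56 ± 0.15, adjusted p = 0.0048, limma) and of long bone (-0.54 ± 0.15, adjusted p = 0.0082). The long bone call was lost in a fit of the long bone groups alone (adjusted p = 0.070). In vertebral GFP- cells it was 0.36 ± 0.15 above EMB- cells and missed the threshold (adjusted p = 0.052). With the replicate number as a block, which uses the 16 vertebral libraries alone, that difference passed (adjusted p = 0.014). It also passed without vertebral GFP+ EMB+ replicate 1, vertebral GFP- EMB- replicate 3, vertebral GFP- EMB+ replicate 4, long bone EMB- replicate 2 or 4 or long bone EMB+ replicate 1 (adjusted p from 0.027 to 0.049). Over all alternative runs, however, this vertebral GFP- difference ranged from 0.067 to 0.48, with adjusted p from 0.014 to 0.80. Leaving out 1 library gave 0.28 to 0.45, so the lowest value came from another kind of run. The EMB difference was lower in GFP+ than in GFP- vertebral cells (-0.92 ± 0.22, adjusted p = 0.010) and above that of long bone in vertebral GFP- cells (0.90 ± 0.22, adjusted p = 0.0030).

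Efemp2 was among the most abundant of the 10 genes and the steadiest across groups. Vertebral GFP+ libraries had 90.2, 93.9, 92.6 and 97.9 FPKM in EMB+ and 92.0, 98.2, 96.5 and 108 FPKM in EMB- cells, and vertebral GFP- libraries 100.5, 93.2, 95.8 and 98.2 FPKM in EMB+ and 99.0, 106, 98.6 and 108 FPKM in EMB- cells. Long bone EMB+ libraries had 123, 126, 111 and 118 FPKM and long bone EMB- libraries 74.1, 62.3, 65.8 and 106 FPKM. All EMB+ libraries of long bone lie above its EMB- libraries, among which replicate 4 is highest.

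In long bone Efemp2 rose 1.56-fold in EMB+ cells (0.66 ± 0.12, adjusted p = 8.6e-05, limma), and without long bone EMB- replicate 4 the difference was 0.82 (adjusted p = 6.2e-09). Vertebral differences were -0.07 (95% interval -0.32 to 0.17) in GFP+ and -0.08 (-0.33 to 0.16) in GFP- cells, with adjusted p of 0.62 and 0.57. Those near-zero values hold for deposited FPKM: relative to the general shift, Efemp2 was lower in EMB+ cells, at -0.46 in GFP+ (adjusted p = 0.0013) and -0.49 in GFP- cells (adjusted p = 5.6e-04) with median-ratio scaling. The EMB difference was lower in vertebral GFP- than in long bone cells by -0.74 ± 0.17 (adjusted p = 0.0015).

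Efemp1 codes for fibulin-3, a fibulin that mice need for elastic fibres of the fascia. Vertebral GFP+ cells had 17.5, 15.5, 15.4 and 21.4 FPKM in EMB+ and 20.5, 19.5, 25.6 and 27.1 FPKM in EMB- libraries. Vertebral GFP- cells had 14.2, 20.6, 17.6 and 26.7 FPKM in EMB+ and 27.6, 35.4, 30.5 and 35.9 FPKM in EMB- libraries. Long bone EMB+ libraries were the lowest, at 7.05, 9.23, 12.5 and 12.5 FPKM, against 27.8, 25.8, 41.7 and 21.3 FPKM in EMB- libraries. Efemp1 was lower in EMB+ cells of the vertebral GFP- fraction (-0.71 ± 0.20, adjusted p = 0.0039, limma) and of long bone (-1.40 ± 0.20, adjusted p = 3.2e-06). In the GFP+ lineage the groups overlap and the difference of -0.39 missed the threshold (adjusted p = 0.099), but passed it with median-ratio scaling (-0.76, adjusted p = 0.0057) and in a fit of the 2 groups alone (adjusted p = 0.016).

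Fbln1 codes for fibulin-1, found in elastic fibres and basement membranes. Its levels were 7.59, 6.29, 7.86 and 7.82 FPKM in vertebral GFP+ EMB+ libraries, against 14.3, 12.4, 15.9 and 15.1 FPKM in vertebral GFP+ EMB- libraries. Vertebral GFP- libraries had 8.15, 8.06, 9.62 and 7.66 FPKM in EMB+ and 7.49, 6.72, 7.09 and 5.67 FPKM in EMB- cells. Long bone libraries had 19.5, 18.1, 17.3 and 18.7 FPKM in EMB+ and 13.3, 13.1, 13.6 and 16.5 FPKM in EMB- cells. Within each site the EMB+ and EMB- libraries do not overlap, with EMB+ below in the GFP+ lineage and above in the other cells.

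Fbln1 fell 1.95-fold in EMB+ cells of the GFP+ lineage (-0.88 ± 0.11, adjusted p = 6.4e-07, limma) and rose 1.3-fold in long bone EMB+ cells (0.36 ± 0.11, adjusted p = 0.014). The long bone call was lost in a fit of the long bone groups alone (adjusted p = 0.094). A rise of 0.28 ± 0.11 in vertebral GFP- EMB+ cells passed narrowly (adjusted p = 0.040); it turned to -0.087 (adjusted p = 0.56) with median-ratio scaling, was 0.02 (adjusted p = 0.91) with quantile normalization, missed in a fit of the 2 groups alone (adjusted p = 0.061) and was lost without any of vertebral GFP- EMB+ replicates 1, 2 and 3 and vertebral GFP- EMB- replicates 2 and 4 (adjusted p from 0.053 to 0.15). The EMB difference was lower in GFP+ than in GFP- vertebral cells by -1.15 ± 0.16 (adjusted p = 2.2e-05).

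Fbln2 codes for fibulin-2, which overlaps in function with fibulin-5 in vessel walls of mice. It was at 1.12, 1.5, 1.35 and 1.72 FPKM in vertebral GFP+ EMB+ libraries, against 7.89, 9.16, 12.4 and 7.98 FPKM in vertebral GFP+ EMB- libraries. Vertebral GFP- EMB+ libraries were the most scattered, at 1.18, 2.13, 5.24 and 6.85 FPKM, against 9.18, 5.51, 5.90 and 3.36 FPKM in vertebral GFP- EMB- libraries. Long bone libraries had 4.23, 7.78, 4.17 and 5.56 FPKM in EMB+ and 22.7, 28.0, 19.6 and 13.1 FPKM in EMB- cells.

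Fbln2 was 6.57-fold lower in EMB+ cells of the GFP+ lineage (-2.08 ± 0.30, adjusted p = 5.2e-06, limma) and 3.84-fold lower in long bone EMB+ cells (-1.75 ± 0.30, adjusted p = 6.5e-05). In vertebral GFP- cells the groups overlap and the difference was -0.64 ± 0.30 (adjusted p = 0.079). It was called with median-ratio scaling (-0.97, adjusted p = 0.018) and without vertebral GFP- EMB- replicate 4 (adjusted p = 0.032), vertebral GFP- EMB+ replicate 3 (0.038) or vertebral GFP- EMB+ replicate 4 (0.012).

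RefSeq promoters of build GRCm38.p6, the 250 bases before and 50 bases after a gene's start, were at hand for 6 of the 10 genes (Fbn1, Fbln1, Fbln2, Fbln5, Efemp1, Efemp2). Where a gene had several entries, that nearest to the gene's 5′ end in the deposited table was used. Fbn1 and Fbln2 are shown as a fibrillin and a fibulin that were lower in EMB+ cells of the GFP+ lineage and of long bone. Efemp2 is shown because its vertebral libraries hardly differed in deposited FPKM, although it was lower in vertebral EMB+ cells with median-ratio scaling. Fbln5 was lower in the same 2 contrasts as Fbn1 and Fbln2, and only its motif count is given. Capitals mark the GC box letters GGGCGG on either strand, a motif of Sp1-family factors. The windows are chr2:125506389-125506688 on the minus strand, chr6:91212514-91212813 on the plus strand and chr19:5473696-5473995 on the plus strand. The RefSeq start lies 1555 bases from the gene's 5′ end in the deposited table for Fbn1, 309 bases for Fbln2 and 27 bases for Efemp2.
Fbn1: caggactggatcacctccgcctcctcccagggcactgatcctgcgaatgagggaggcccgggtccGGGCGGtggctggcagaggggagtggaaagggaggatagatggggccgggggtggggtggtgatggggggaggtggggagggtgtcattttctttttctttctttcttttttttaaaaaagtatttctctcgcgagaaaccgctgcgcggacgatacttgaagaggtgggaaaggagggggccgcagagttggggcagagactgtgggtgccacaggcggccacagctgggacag
Fbln2: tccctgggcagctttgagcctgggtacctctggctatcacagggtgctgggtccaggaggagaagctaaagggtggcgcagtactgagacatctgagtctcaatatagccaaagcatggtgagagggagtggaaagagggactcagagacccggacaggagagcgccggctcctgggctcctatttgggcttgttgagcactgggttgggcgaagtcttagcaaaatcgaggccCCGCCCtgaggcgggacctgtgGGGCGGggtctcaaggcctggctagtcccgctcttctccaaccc
Efemp2: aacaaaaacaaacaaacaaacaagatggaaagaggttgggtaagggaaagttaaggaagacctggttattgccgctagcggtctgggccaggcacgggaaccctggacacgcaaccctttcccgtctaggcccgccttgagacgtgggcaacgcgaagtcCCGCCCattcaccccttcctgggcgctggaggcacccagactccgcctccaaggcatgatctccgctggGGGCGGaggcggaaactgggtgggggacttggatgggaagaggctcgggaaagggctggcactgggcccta
Fbn1 held 1 GC box and Fbln2 and Efemp2 held 2 each. Fbln5 also held 2, Efemp1 held 1 and Fbln1 held 0, while 35.7% of all 32851 promoters in the table held at least 1. The TATA box letters TATAAA were found in 0 of the 6 windows on either strand, against 13.6% of all promoters. E-box letters (CANNTG, the same on both strands) were in 5 of the 6, all but Efemp2, against 72.3% of all promoters. GC content was 60.3% in each of the 3 windows printed, against a median of 52.7% over all promoters. In the windows not printed it was 51.7% for Fbln1, 54.3% for Efemp1 and 65.7% for Fbln5. These matches describe letters only; binding was not measured.

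Lox codes for lysyl oxidase, which crosslinks collagen as well as elastin. It had 47.8, 48.3, 44.4 and 41.3 FPKM in vertebral GFP+ EMB+ libraries, against 84.8, 75.2, 72.6 and 59.5 FPKM in vertebral GFP+ EMB- libraries. Vertebral GFP- libraries had 52.3, 55.0, 68.8 and 53.1 FPKM in EMB+ and 64.8, 58.3, 46.5 and 42.5 FPKM in EMB- cells. Long bone libraries had 198, 240.1, 129 and 121 FPKM in EMB+ and 164.1, 157, 125 and 33.0 FPKM in EMB- cells. The groups of the GFP+ lineage are separate, those of vertebral GFP- and of long bone cells overlap, and replicate 4 of long bone EMB- is far below the other 3 libraries of its group (149 ± 20.9 FPKM, SD, n = 3).

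With all 24 libraries Lox passed the threshold in none of the 3 EMB comparisons, at -0.66 ± 0.32 in vertebral GFP+ (adjusted p = 0.082, limma), 0.12 ± 0.32 in vertebral GFP- (adjusted p = 0.77) and 0.69 ± 0.32 in long bone cells (adjusted p = 0.094). The spread is estimated over all groups together. Without long bone EMB- replicate 4 the difference of -0.66 in the GFP+ lineage passed (adjusted p = 0.0022), as it did with median-ratio scaling (-1.05, adjusted p = 0.023), and the long bone difference was 0.16 (adjusted p = 0.53). Without long bone EMB- replicate 1 or 2 the long bone difference was instead called (0.92, adjusted p = 0.033, and 0.90, adjusted p = 0.043).

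Loxl1 codes for a lysyl oxidase that mice need to keep up elastic fibres after birth. Vertebral GFP+ libraries had 5.10, 4.42, 4.71 and 5.11 FPKM in EMB+ and 14.4, 10.6, 13.1 and 14.0 FPKM in EMB- cells. Vertebral GFP- libraries had 9.61, 7.27, 7.50 and 7.83 FPKM in EMB+ and 11.8, 9.86, 8.87 and 10.6 FPKM in EMB- cells. Long bone libraries had 13.8, 17.4, 19.2 and 18.8 FPKM in EMB+ and 15.9, 16.4, 21.4 and 25.1 FPKM in EMB- cells. Loxl1 was 2.69-fold lower in EMB+ cells of the GFP+ lineage (-1.26 ± 0.14, adjusted p = 9.3e-08, limma). The differences in vertebral GFP- (-0.32 ± 0.14, adjusted p = 0.059) and long bone cells (-0.16 ± 0.14, adjusted p = 0.40) were not called. With the replicate block the vertebral GFP- difference passed (adjusted p = 0.0057), as it did with median-ratio scaling (-0.69, adjusted p = 7.6e-05) and without vertebral GFP- EMB- replicate 3 (0.042), vertebral GFP- EMB+ replicate 1 (0.032) or long bone EMB- replicate 4 (0.030). The EMB difference was lower in GFP+ than in GFP- vertebral cells by -0.94 ± 0.20 (adjusted p = 0.0034).

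The difference of EMB differences between GFP+ and GFP- vertebral cells was thus called for 4 of the 10 genes (Fbn2, Fbln1, Fbln5, Loxl1), all lower in GFP+, against 4.87% of all genes (3.20% higher, 1.67% lower). Between vertebral GFP- and long bone cells it was called for 5 (Eln, Fbn1, Efemp2 lower, Fbn2 and Fbln5 higher), against 29.8% of all genes (24.7% higher, 5.07% lower). Of all genes, this second contrast called 1241 higher and 1040 lower with median-ratio scaling and 1226 and 1245 with quantile normalization, against 2907 and 596 as deposited, and the call for Fbn2 (0.83) was then lost (0.61, adjusted p = 0.084, with median-ratio scaling). Fbln2 missed both (-1.44 and 1.11, adjusted p = 0.054 each) and passed both without long bone EMB- replicate 4 (adjusted p = 0.039 and 0.025), vertebral GFP- EMB- replicate 1 (0.026 and 0.027), vertebral GFP- EMB+ replicate 1 (0.0064 and 0.0089) or vertebral GFP- EMB+ replicate 2 (0.037 and 0.037). It passed the first also without long bone EMB- replicate 2 (0.044) and the second without long bone EMB+ replicate 2 (0.036). Without long bone EMB- replicate 4, Lox passed the first (-0.79, adjusted p = 0.047) and Efemp1 the second (0.82, adjusted p = 0.019), as Efemp1 did without vertebral GFP- EMB+ replicate 1 (0.029) or long bone EMB+ replicate 3 (0.043) or 4 (0.042). The 2 contrasts share the vertebral GFP- libraries.

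GFP+ was also set against GFP- directly, to compare Zic1-Cre lineage cells with other vertebral cells of the same sort. In EMB+ cells 2 of the 10 genes were lower in GFP+, Fbn2 (-0.64 ± 0.16, adjusted p = 0.035, limma) and Loxl1 (-0.63 ± 0.14, adjusted p = 0.011), against 2.10% of all genes (0.391% higher, 1.71% lower). Loxl1 averaged 4.83 ± 0.335 FPKM in GFP+ and 8.05 ± 1.06 FPKM in GFP- cells, and Fbn2 1.70 ± 0.468 and 3.19 ± 0.544 FPKM (SD, n = 4 each). Neither gene's libraries overlap between the groups; with Lox, 3 of the 10 were separate and lower in GFP+ and 0 higher, against 5.10% and 3.20% of all genes. The Fbn2 call was lost with either scaling (adjusted p = 0.084 and 0.096), in a fit of the 2 groups alone (0.054), and without GFP+ EMB+ replicate 2 or 4 or GFP- EMB+ replicate 2, 3 or 4 (0.074 to 0.19). The Loxl1 call was lost without GFP+ EMB+ replicate 2 (0.052) or GFP- EMB+ replicate 1 (0.061). With the replicate block Fbn1 was called as well (0.34, adjusted p = 0.044). Without GFP- EMB+ replicate 1, the library lowest in Fbln2, that gene was called (-1.15, adjusted p = 0.034), against -0.82 (adjusted p = 0.29) with it. The leukocyte markers summed to 22.2 to 212 FPKM in GFP+ EMB+ and 415 to 3109 FPKM in GFP- EMB+ libraries, and their part was not tested.

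In EMB- cells 2 of the 10 genes were higher in GFP+ and 0 lower, against 8.47% of all genes (2.25% higher, 6.22% lower). Fbln1 averaged 14.4 ± 1.52 FPKM in GFP+ and 6.74 ± 0.779 FPKM in GFP- cells, 2.14-fold higher (0.99 ± 0.11, adjusted p = 3.3e-07, limma). Fbln5 averaged 5.29 ± 0.372 FPKM in GFP+ and 2.19 ± 0.399 FPKM in GFP- cells, 2.42-fold higher (0.99 ± 0.15, adjusted p = 4.8e-05). In both genes the lowest GFP+ library lies above the highest GFP- library, and both calls held in every alternative run. In all, 3 of the 10 were separate and higher and 1 lower in GFP+ EMB- cells, against 5.92% and 10.8% of all genes. Eln, by contrast, was at 332 ± 32.3 and 303 ± 27.7 FPKM in GFP+ and GFP- cells, a difference of 0.13 (95% interval -0.35 to 0.61). With the replicate block 4 more genes were called, Lox (0.46, adjusted p = 0.0023) and Loxl1 (0.31, adjusted p = 0.024) higher and Efemp1 (-0.47, adjusted p = 0.0044) and Fbn1 (-0.33, adjusted p = 0.021) lower in GFP+. Osteoblast markers were higher in GFP+ for 6 of 7 (summed level 7503 to 8038 FPKM in GFP+ and 4027 to 4973 FPKM in GFP- EMB- libraries), as were 4 of 7 fibroblast and periosteum markers (1018 to 1381 and 830 to 1107 FPKM), with 0 lower in either list. All 7 erythroid markers were lower, at a sum of 264 to 977 FPKM in GFP+ EMB- and 7256 to 12334 FPKM in GFP- EMB- libraries. The part of these markers was not tested.

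Vertebral cells were next compared with long bone cells of the same EMB state. Among EMB+ cells 7 of the 10 genes were lower in the vertebral GFP+ lineage than in long bone and 1 was higher, against 21.5% of all genes called (8.66% higher, 12.9% lower). Against the same long bone libraries, 6 were lower and 1 higher in vertebral GFP- cells, beside 19.1% of all genes (8.49% higher, 10.6% lower). Libraries were separate for 7 lower and 1 higher in GFP+ (16.1% and 12.0% of all genes) and 6 lower and 1 higher in GFP- cells (12.5% and 12.4%). Both lysyl oxidases were low in vertebral EMB+ cells: Lox averaged 45.5 ± 3.26 FPKM in GFP+, 57.3 ± 7.74 FPKM in GFP- and 172.1 ± 57.2 FPKM in long bone cells, with differences from long bone of -1.84 (adjusted p = 7.6e-05) and -1.52 (adjusted p = 8.2e-04). Loxl1 averaged 4.83 ± 0.335, 8.05 ± 1.06 and 17.3 ± 2.45 FPKM in the same order, with differences of -1.64 (adjusted p = 2.2e-09) and -1.01 (adjusted p = 5.7e-06). Fbln1 was lower as well, at 7.39 ± 0.742 and 8.37 ± 0.859 FPKM against 18.4 ± 0.925 FPKM (-1.21, adjusted p = 7.0e-09, and -1.05, adjusted p = 1.1e-07). Efemp1 was the only gene of the 10 called higher, at 17.4 ± 2.79 and 19.8 ± 5.30 FPKM against 10.3 ± 2.69 FPKM (0.72, adjusted p = 0.0079, and 0.87, adjusted p = 0.0018). Markers of other cell types moved in the same contrasts: in GFP+ and in GFP- cells 5 of 7 osteoblast markers were lower and 0 higher, 7 of 8 chondrocyte markers were higher and 1 lower, and of 7 fibroblast and periosteum markers 4 were lower in GFP+ and 5 in GFP- cells, with 0 higher. Osteoblast markers summed to 5375 to 6501 FPKM in GFP+, 6367 to 8200 FPKM in GFP- and 14684 to 31770 FPKM in long bone EMB+ libraries. In long bone EMB+ replicates 1 to 4 that sum was 27865, 31770, 15194 and 14684 FPKM, beside Lox at 198, 240.1, 129 and 121 FPKM. The part of these markers was not tested.

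Relative to long bone EMB+ cells, Fbn2 and Fbln2 were lower in GFP+ EMB+ cells (-1.09, adjusted p = 1.4e-05, and -1.38, adjusted p = 0.0013), and Fbln5 was lower in both vertebral fractions (-0.58, adjusted p = 0.0066, and -0.65, adjusted p = 0.0028). Eln and Fbn1 were lower in vertebral GFP- EMB+ cells (-0.72, adjusted p = 0.024, and -0.64, adjusted p = 0.021). Those 2 calls were lost without vertebral GFP- EMB+ replicate 1 (adjusted p = 0.12 for Eln, 0.073 for Fbn1) or long bone EMB+ replicate 2 (0.098 and 0.054), 3 (0.052 and 0.073) or 4 (0.064 and 0.087), and that of Eln also without vertebral GFP- EMB+ replicate 2 (0.12) or in a fit of the 2 groups alone (0.11). Efemp2 was lower in the GFP+ fraction (-0.35, adjusted p = 0.033), a call lost without vertebral GFP+ EMB+ replicate 1, 2 or 3, without long bone EMB+ replicate 1, 2 or 4, and without the 4 libraries whose labels conflict (adjusted p from 0.055 to 0.087). In vertebral GFP- EMB+ cells Efemp2 (-0.30, adjusted p = 0.077) and Fbn2 (-0.45, adjusted p = 0.055) missed the threshold, and both passed it without long bone EMB- replicate 4 (adjusted p = 0.0032 and 0.043). Fbn2 also passed without vertebral GFP+ EMB+ replicate 2, vertebral GFP- EMB+ replicate 4, long bone EMB- replicate 2 or 3 or long bone EMB+ replicate 1 (adjusted p from 0.035 to 0.050).

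Among EMB- cells Eln was higher in vertebral than in long bone cells. It averaged 332 ± 32.3 FPKM in vertebral GFP+, 303 ± 27.7 FPKM in vertebral GFP- and 46.4 ± 11.5 FPKM in long bone cells, 7.16-fold and 6.53-fold higher than in long bone (2.84 ± 0.23, adjusted p = 1.6e-10, and 2.71 ± 0.23, adjusted p = 7.6e-10, limma). In all, 2 of the 10 genes were higher and 4 lower in GFP+ EMB- cells, against 47.8% of all genes called (7.40% higher, 40.4% lower), and 2 higher and 6 lower in GFP- EMB- cells, against 48.2% (8.05% higher, 40.2% lower). Libraries were separate for 4 lower and 1 higher in GFP+ (31.1% and 5.74% of all genes) and 5 lower and 1 higher in GFP- cells (29.0% and 6.28%). Fbln5 was 3.86-fold lower in GFP- EMB- cells (-1.56 ± 0.15, adjusted p = 1.4e-08), at 2.19 ± 0.399 FPKM against 8.45 ± 1.74 FPKM in long bone. Fbn2 was lower in both fractions (-0.92, adjusted p = 5.3e-05, and -1.28, adjusted p = 8.0e-07), as was Fbln2 (-1.05, adjusted p = 0.0061, and -1.66, adjusted p = 8.3e-05). Fbln1 was lower in GFP- cells (-0.96, adjusted p = 1.6e-07) and at 0.03 (95% interval -0.20 to 0.26) in GFP+ cells. All 7 erythroid markers were lower in both vertebral fractions, as were 3 of 4 skeletal muscle markers, 6 of 7 osteoblast markers in GFP+ and 7 of 7 in GFP- cells. Osteoblast markers summed to 7503 to 8038 FPKM in GFP+, 4027 to 4973 FPKM in GFP- and 12144 to 21620 FPKM in long bone EMB- libraries. Of 7 fibroblast and periosteum markers 5 were lower and 1 higher in GFP+, and 6 lower and 0 higher in GFP- cells. Of 7 smooth muscle and pericyte markers 6 were lower in GFP+ and 5 in GFP- cells, with 0 higher. Of 8 chondrocyte markers 5 were higher and 1 lower in GFP+, and 3 higher and 1 lower in GFP- cells. The part of these markers was not tested.

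Scaling matters for the EMB- contrasts of site, since the median of all genes was -0.27 in GFP+ and -0.28 in GFP- cells as deposited and -0.02 and -0.05 with median-ratio scaling. The called genes were then 2008 higher and 2804 lower in GFP+ cells, against 871 and 4750 as deposited, and 1871 and 2658 in GFP- cells, against 947 and 4728. Quantile normalization gave 3185 higher and 2169 lower in GFP+ cells and 2480 and 2303 in GFP- cells. In GFP+ EMB- cells the calls for Fbln2 (-0.77, adjusted p = 0.053), Fbln5 (-0.31, adjusted p = 0.15) and Loxl1 (-0.26, adjusted p = 0.098) were lost with median-ratio scaling, and Fbln1 was called higher (0.32, adjusted p = 0.014). In GFP- EMB- cells Lox (-0.95, adjusted p = 0.016) was lost (-0.66, adjusted p = 0.13). Leaving out long bone EMB- replicate 4 gave Lox as -1.02 in GFP+ (adjusted p = 6.4e-05, against -0.48 and 0.22 with it) and -1.48 in GFP- cells (adjusted p = 5.4e-07). Lox in GFP- cells was not called without long bone EMB- replicate 1 (adjusted p = 0.074) or 2 (0.073), or in a fit of the 2 groups alone (0.11). Fbn1 in GFP- EMB- cells missed the threshold (0.46, adjusted p = 0.055) and passed it with median-ratio scaling (0.74, adjusted p = 0.0061) or without long bone EMB- replicate 2 (0.040) or 3 (0.012) or long bone EMB+ replicate 1 (0.030). Efemp2 was higher in both fractions (0.38, adjusted p = 0.0092, and 0.44, adjusted p = 0.0032), but not in fits of the 2 groups alone (adjusted p = 0.13 and 0.088).

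**Figure D3:**
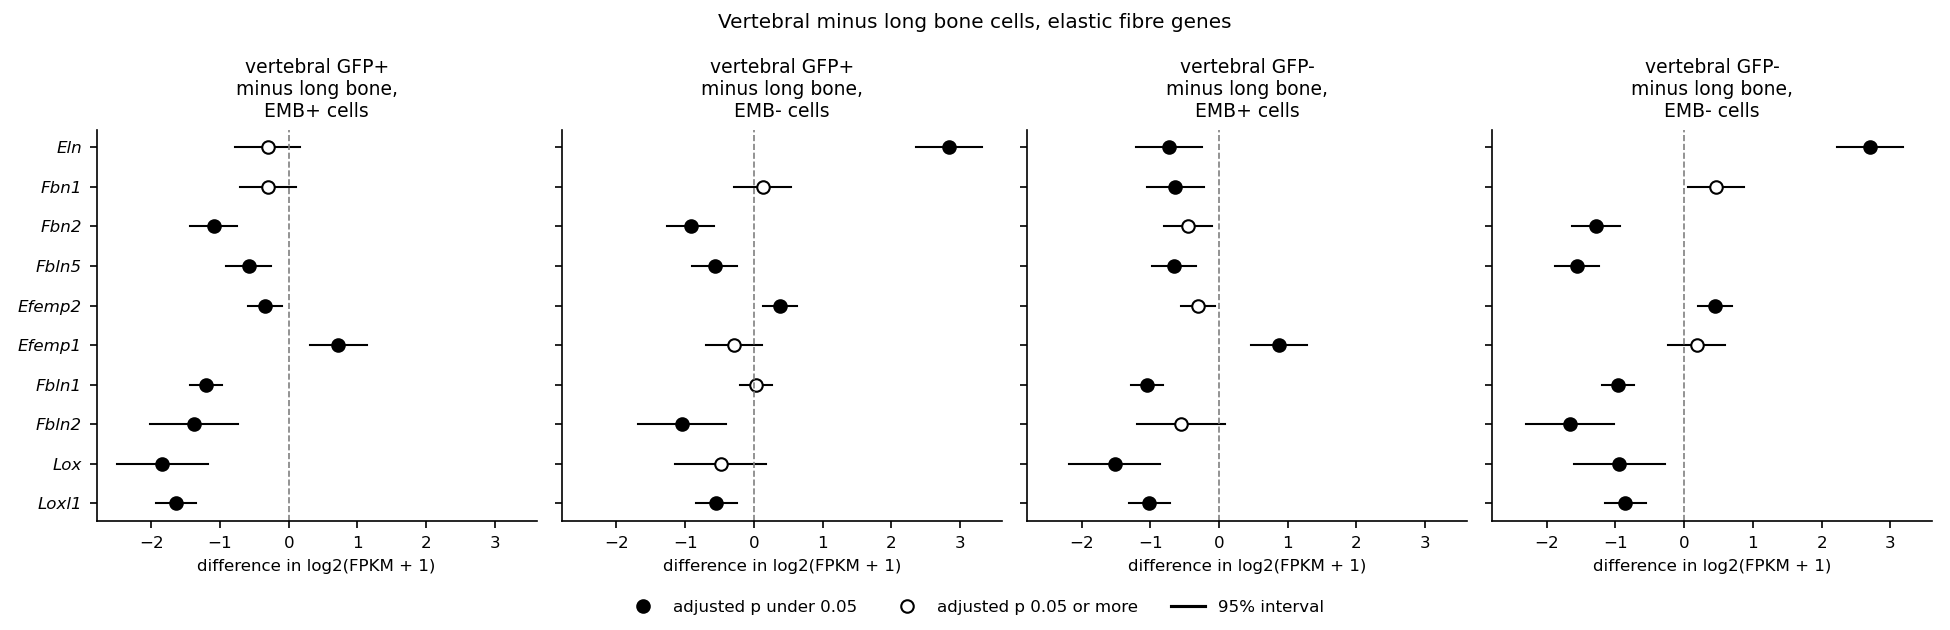
Differences between vertebral and long bone cells in log2(FPKM + 1) for the 10 genes, for GFP+ EMB+, GFP+ EMB-, GFP- EMB+ and GFP- EMB- cells from left to right. Points left of the dashed line are lower in vertebral cells, lines are 95% intervals, and filled points passed the adjusted p threshold of 0.05. Eln is the gene farthest to the right in both EMB- panels, at 2.84 and 2.71.

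Because FPKM is per length, the levels of the 10 genes can be summed within a library, and the make-up of the sum differed by group. They summed to 209 ± 4.61 FPKM in vertebral GFP+ EMB+ and 596 ± 37.0 FPKM in vertebral GFP+ EMB- cells, to 226 ± 17.2 and 549 ± 34.9 FPKM in vertebral GFP- EMB+ and EMB- cells, and to 396 ± 61.7 FPKM in EMB+ and 365 ± 55.1 FPKM in EMB- cells of long bone (SD, n = 4 each). Eln made up 55.6% of the sum in GFP+ and 55.2% in GFP- cells of the vertebral EMB- state, but 7.07% to 12.9% in the other 4 groups. In vertebral EMB+ cells Efemp2 led, with 44.9% in GFP+ and 43.0% in GFP- cells. In both long bone groups Lox led by the mean, with 42.7% in EMB+ and 31.3% in EMB- cells. Long bone EMB- replicate 4 differed, with Lox at 11.6% and Efemp2 at 37.1%.

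Ratios of genes within a library do not depend on scaling by a single factor per library, such as median-ratio scaling. Quantile normalization can change them. Eln stood at 0.238 ± 0.0704 times the Efemp2 level in vertebral GFP+ EMB+ and 3.40 ± 0.544 times in vertebral GFP+ EMB- libraries, at 0.177 ± 0.0789 and 2.95 ± 0.252 times in vertebral GFP- EMB+ and EMB- libraries, and at 0.231 ± 0.0537 and 0.638 ± 0.260 times in long bone EMB+ and EMB- libraries. EMB+ and EMB- libraries do not overlap in this ratio at any site. Set against Fbn1, its microfibril partner, Eln kept a ratio near that of EMB+ cells in long bone EMB- libraries (2.23 ± 0.919, against 1.99 ± 0.357 in long bone EMB+), whereas it was 13.9 ± 0.552 in the GFP+ and 10.0 ± 1.29 in the GFP- libraries of vertebral EMB- cells. Fbn2 to Fbn1 was 0.373 ± 0.0475 in EMB+ and 0.0703 ± 0.00757 in EMB- libraries of vertebral GFP- cells, which do not overlap, and 0.156 ± 0.0427 and 0.129 ± 0.0247 in vertebral GFP+ EMB+ and EMB- libraries, which do. Fbln2 to Fbln5 was 0.436 ± 0.0784 in EMB+ and 1.76 ± 0.307 in EMB- libraries of vertebral GFP+ cells, without overlap.

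**Figure D4:**
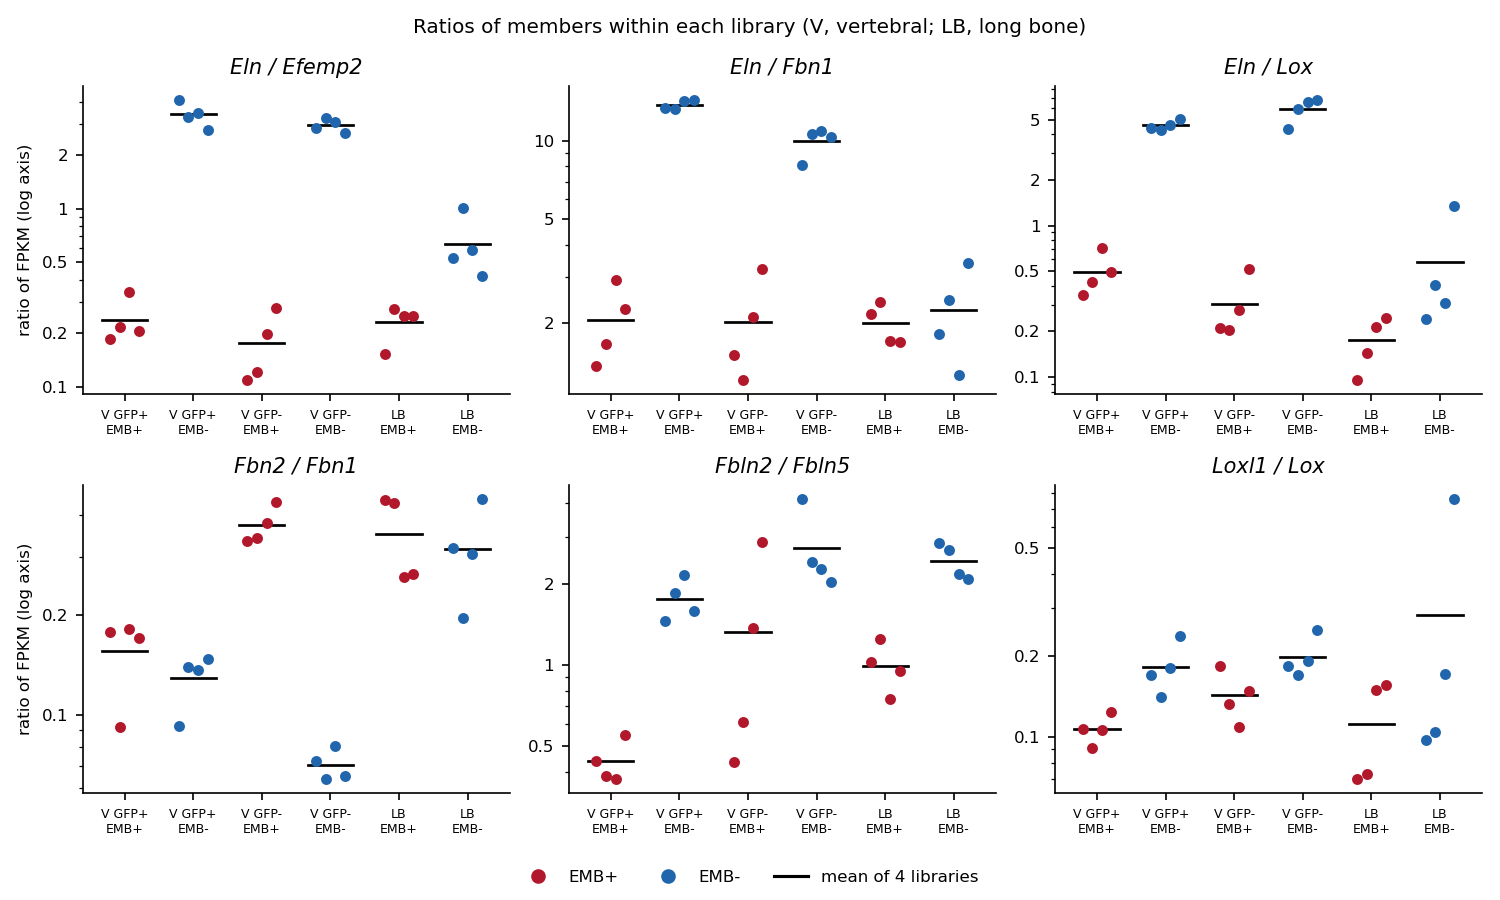
Ratios of FPKM between pairs of elastic fibre genes within each of the 24 libraries, on log axes that differ between panels. Points are libraries (red, EMB+; blue, EMB-) and bars are means of 4 libraries. Eln over Efemp2 separates EMB+ from EMB- libraries at every site, and the long bone EMB- library with Loxl1 over Lox at 0.760 is replicate 4.

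Other genes of the pathway were taken as 4 lists. Of 18 proteins associated with microfibrils and elastic fibres, all tested, 10 were lower and 5 higher in EMB+ cells of the GFP+ lineage, 9 lower and 6 higher in vertebral GFP- cells, and 7 lower and 3 higher in long bone cells. Of all genes 7.85%, 10.6% and 16% were lower and 42.1%, 41.7% and 17.5% higher in these 3 contrasts. With median-ratio scaling the list's counts were 11 lower and 4 higher, 12 and 4, and 7 and 3. The list's medians were -0.54, -0.51 and -0.17, beside 0.32, 0.30 and 0.08 over all genes. Vcan, a large proteoglycan that binds fibulins and fibrillins, was at 0.661 ± 0.217 FPKM in GFP+ EMB+ and 11.8 ± 1.88 FPKM in GFP+ EMB- cells (-2.94, adjusted p = 2.2e-13, limma), and likewise low in GFP- EMB+ cells (-3.44, adjusted p = 6.7e-15). Ltbp4, a latent TGF-beta binding protein that works with fibulin-5 in elastin assembly, was at 7.92 ± 0.862 FPKM in EMB+ and 49.0 ± 2.75 FPKM in EMB- cells of the GFP+ lineage (-2.49, adjusted p = 6.4e-12) and was also lower in long bone EMB+ cells (-1.74, adjusted p = 3.7e-09). Adamtsl2, a binding partner of fibrillin-1, was at 0.376 ± 0.204 FPKM in EMB+ and 23.1 ± 6.02 FPKM in EMB- cells of the vertebral GFP- fraction (-4.11, adjusted p = 7.4e-13). Emilin2 was lower in long bone EMB+ cells (1.27 ± 0.194 against 12.9 ± 5.10 FPKM, -2.54, adjusted p = 3.1e-09).

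Against this direction, Fbln7, a fibulin that is not a member of the 10, was at 366 ± 20.0 FPKM in EMB+ and 82.4 ± 4.40 FPKM in EMB- cells of the GFP+ lineage (2.14, adjusted p = 5.4e-13, limma) and at 342 ± 20.4 and 48.3 ± 2.20 FPKM in vertebral GFP- EMB+ and EMB- cells (2.80, adjusted p = 2.1e-15). Emilin1, a glycoprotein at the border of elastin and microfibrils, was higher in EMB+ cells in all 3 comparisons (1.01, adjusted p = 7.2e-09; 1.08, adjusted p = 1.4e-09; 0.71, adjusted p = 2.4e-06). Thsd4, a fibrillin-1 binding protein, rose in long bone EMB+ cells to 19.2 ± 5.08 FPKM, against 7.52 ± 2.96 FPKM in EMB- cells (1.28, adjusted p = 2.1e-05).

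Of the 10 genes for other lysyl oxidases, copper supply and enzyme activation, 9 were tested, and 3 were higher and 1 lower in GFP+, 6 higher and 2 lower in vertebral GFP- and 5 higher and 0 lower in long bone EMB+ cells. The shares of all genes higher were 42.1%, 41.7% and 17.5%, so 3 of 9 in GFP+ cells is below the background. The list's medians were 0.28, 0.58 and 0.56, beside 0.32, 0.30 and 0.08 over all genes. With median-ratio scaling the counts were 1 higher and 2 lower, 3 and 2, and 4 and 0. Loxl4, a lysyl oxidase paralog, was higher in EMB+ cells at every site, at 63.1 ± 11.1 against 7.64 ± 2.24 FPKM in GFP+ (2.91, adjusted p = 1.7e-10), 69.1 ± 20.7 against 5.67 ± 0.938 FPKM in vertebral GFP- (3.36, adjusted p = 7.6e-12) and 64.8 ± 4.04 against 15.2 ± 5.39 FPKM in long bone cells (2.10, adjusted p = 4.8e-08). Atox1, a copper chaperone, was lower in both vertebral fractions (-0.70, adjusted p = 0.0057, and -0.75, adjusted p = 0.0031), and Loxl2 was lower in vertebral GFP- EMB+ cells (-0.91, adjusted p = 0.0028). Pcolce, an enhancer of procollagen cleavage, rose in vertebral GFP- EMB+ cells (0.88, adjusted p = 1.8e-05), and Bmp1, the protease that frees active Lox, in long bone EMB+ cells (0.81, adjusted p = 1.9e-04). In GFP+ EMB+ cells Pcolce was not called as deposited (-0.28, adjusted p = 0.10, limma) and was lower with median-ratio scaling (-0.67, adjusted p = 8.1e-04). The copper importer Slc31a1 was higher in GFP+ EMB+ cells (0.48, adjusted p = 0.0077), but not with median-ratio scaling (0.11, adjusted p = 0.66).

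Of 8 elastin-degrading proteases 5 were tested, and 2, 5 and 3 were higher in EMB+ cells of the GFP+ lineage, the vertebral GFP- fraction and long bone, with 0 lower. Beside the 42.1%, 41.7% and 17.5% of all genes that were higher, 2 of 5 in GFP+ cells is at the background. The list's medians were 0.31, 1.31 and 0.75, beside 0.32, 0.30 and 0.08 over all genes. With median-ratio scaling 1 was higher and 2 were lower in GFP+ cells, and 4 and 3 were higher in the other cells. Mmp9, a gelatinase, was at 20.3 ± 4.61 FPKM in EMB+ and 3.22 ± 0.659 FPKM in EMB- cells of the GFP+ lineage (2.33, adjusted p = 1.4e-05, limma) and at 87.6 ± 17.7 FPKM in EMB+ and 17.3 ± 12.8 FPKM in EMB- cells of long bone (2.47, adjusted p = 7.9e-06). Mmp2, another gelatinase, was at 339 ± 20.0 FPKM in EMB+ and 152 ± 4.26 FPKM in EMB- cells of the vertebral GFP- fraction (1.15, adjusted p = 1.4e-09) and rose in long bone (0.75, adjusted p = 2.1e-06); its rise of 0.31 in GFP+ cells (adjusted p = 0.015) was -0.08 with median-ratio scaling. Ctsk, cathepsin K, was higher in vertebral GFP- EMB+ cells (1.31, adjusted p = 2.7e-09). In that contrast 6 of 7 leukocyte markers were higher too, and 3 with median-ratio scaling. They summed to 415 to 3109 FPKM in vertebral GFP- EMB+ and 133 to 543 FPKM in vertebral GFP- EMB- libraries. In GFP+ EMB+ cells 3 leukocyte markers were higher and 0 lower, and in long bone 1 was higher and 1 lower. Their part was not tested.

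Among 9 integrins and parts of the elastin receptor complex, all tested, 3 were higher and 4 lower in GFP+, 2 and 2 in vertebral GFP- and 1 and 0 in long bone EMB+ cells. Of all genes 42.1%, 41.7% and 17.5% were higher and 7.85%, 10.6% and 16% lower, so the counts of higher genes are below the background. The counts of lower genes, 4 of 9 in GFP+ and 2 of 9 in vertebral GFP- cells, are above it, and 0 in long bone is below it. The list's medians were -0.07, 0.22 and 0.19, beside 0.32, 0.30 and 0.08 over all genes. With median-ratio scaling the counts were 1 higher and 5 lower, 1 and 4, and 1 and 0. Itga8, an integrin chain, was higher at all sites (2.16, adjusted p = 2.1e-10; 2.31, adjusted p = 3.9e-11; 0.78, adjusted p = 7.2e-04). Itga5, the fibronectin receptor chain, was lower in EMB+ cells of both vertebral fractions, at 18 ± 2.98 against 67.3 ± 9.48 FPKM in GFP+ (-1.85, adjusted p = 6.0e-09) and 18.1 ± 3.14 against 81.8 ± 12.7 FPKM in GFP- cells (-2.12, adjusted p = 3.8e-10). Glb1, whose splice form is the elastin-binding protein, was lower in the same 2 contrasts (-0.51, adjusted p = 6.1e-04, and -0.45, adjusted p = 0.0019). Itgav was higher in both (0.68, adjusted p = 0.0011, and 0.62, adjusted p = 0.0020), but not with median-ratio scaling (adjusted p = 0.17 and 0.29).

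Markers of connective tissue moved with the EMB contrast. All 7 fibroblast and periosteum markers tested were lower in GFP+ EMB+ cells, and 6 of 7 in vertebral GFP- and in long bone EMB+ cells. Their levels summed to 217 to 275 FPKM in GFP+ EMB+ and 1018 to 1381 FPKM in GFP+ EMB- libraries, to 221 to 385 and 830 to 1107 FPKM in vertebral GFP- EMB+ and EMB- libraries, and to 669 to 934 and 1366 to 2395 FPKM in long bone EMB+ and EMB- libraries. Of 6 tendon and ligament markers tested, 6, 6 and 3 were lower in EMB+ cells of the GFP+ lineage, the vertebral GFP- fraction and long bone, and 0 higher. They summed to 1905 to 2055 and 3690 to 4154 FPKM in vertebral GFP+ EMB+ and EMB- libraries, and to 1671 to 1942 and 3275 to 3804 FPKM in vertebral GFP- EMB+ and EMB- libraries. In long bone they summed to 1563 to 2354 FPKM in EMB+ and 1863 to 2696 FPKM in EMB- libraries, so Eln and this sum were both highest in vertebral EMB- libraries. Smooth muscle and pericyte markers, by contrast, summed to more in EMB+ than in EMB- vertebral libraries (136 to 154 against 58.5 to 70.8 FPKM), most of it Cspg4. Of this list Myh11 and Cnn1 were at most 1.17 and 0.176 FPKM in any vertebral library. Acta2 and Mcam reached 1 FPKM in every vertebral group, and Tagln in all but GFP+ EMB-. Of 7 tested, 1 was higher and 1 lower in GFP+ and 1 higher and 0 lower in vertebral GFP- EMB+ cells. Endothelial markers summed to at most 6.17 FPKM in any library. Among all genes tested 7.85%, 10.6% and 16% were lower in the 3 EMB contrasts. The fibroblast and tendon counts were the same with median-ratio scaling. The part of all these cell types in the differences was not tested.

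Chondrocyte and osteoblast markers were found in all groups. Of 8 chondrocyte markers 7 were higher and 1 lower in EMB+ cells of both vertebral fractions, and 6 were higher and 0 lower in long bone. Their summed level nevertheless ran the other way in the vertebrae, at 48254 to 50842 FPKM in EMB+ and 53012 to 56336 FPKM in EMB- libraries of GFP+ cells and at 48505 to 50497 FPKM in EMB+ and 54287 to 58878 FPKM in EMB- libraries of GFP- cells. Of 7 osteoblast markers 3 were higher and 2 lower in EMB+ cells of the GFP+ lineage, 5 and 0 in vertebral GFP- cells and 3 and 1 in long bone. Among all genes tested 42.1%, 41.7% and 17.5% were higher and 7.85%, 10.6% and 16% lower. Thus 3 of 7 osteoblast markers in GFP+ cells is at the background. With median-ratio scaling the chondrocyte counts were 5 higher and 1 lower in both vertebral fractions and 6 and 0 in long bone. Osteoblast counts were then 3 and 3, 4 and 1, and 3 and 1. Sox9, the cartilage regulator, averaged 528 and 331 FPKM in vertebral GFP+ EMB+ and EMB- cells, 521 and 337 FPKM in vertebral GFP- EMB+ and EMB- cells and 279 FPKM in EMB+ and 200 FPKM in EMB- cells of long bone. Col2a1, cartilage collagen, was at 21746 FPKM or more in every library.

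Across the 24 libraries, the genes whose log2(FPKM + 1) ran closest to each of the 10 were found by Pearson's r, a description over libraries that share groups. Eln ran closest to Chrdl2 (r = 0.97), Aoc2 (0.97) and Ppp1r14a (0.97). Fbn1 ran closest to Col4a2 (0.94), Ssc5d (0.92) and Ltbp3 (0.92), and Fbn2 to Ptn (0.91), Sfrp2 (0.89) and Cd248 (0.88). Among the fibulins, Fbln5 was most like Bmp4 (0.90), Sepp1 (0.89) and Dmp1 (0.89), and Efemp2 most like Hexa (0.84), Prdx4 (0.84) and Praf2 (0.80). Efemp1 followed Hspb6 (0.87), Spon1 (0.84) and Mcm6 (0.83), Fbln1 followed Sdc1 (0.89), Podxl2 (0.88) and Pcolce (0.86), and Fbln2 followed Postn (0.93), Cdh13 (0.93) and Cd34 (0.92). Lox was most like Ptprs (0.92), Gja1 (0.91) and Pcdhgc3 (0.90), and Loxl1 most like Thbs4 (0.95), Rasl11b (0.95) and Igfbp4 (0.94). Among the 10 themselves Eln and Fbn1 were the closest pair (0.83), and Efemp1 and Efemp2 the farthest apart (-0.54).

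In GRCm38 coordinates from the deposited table the genes lie on 9 chromosomes, with Lox (18:52516069-52529867) and Fbn2 (18:58008623-58209926) on the same one. Eln lies at 5:134702593-134747323, Fbn1 at 2:125300594-125507993, Fbln2 at 6:91212455-91272540, Loxl1 at 9:58287723-58313212 and Efemp1 at 11:28853204-28926743. Fbln5 lies at 12:101746565-101819055, Fbln1 at 15:85205949-85286535 and Efemp2 at 19:5473973-5481853. Levels are sums over each gene's transcripts, so splice forms, of which Eln and Fbln1 have several, cannot be told apart.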

How the data were processed

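RNA of sorted cells was amplified with SMART-Seq v4 and made into Nextera XT libraries, per the labels' protocols, a method that keeps no strand. Tools listed in the submitters' processing notes are Cufflinks 2.1.1, STAR 2.5.2 and bcl2fastq 2.19, with build GRCm38. The authors deposited FPKM per gene and no counts, so depth is unknown. Of 22053 entries 21948 were kept, after leaving out repeated identifiers, repeated symbols and failed estimates, and 11767 with FPKM of 1 or more in at least 4 libraries were tested. One limma 3.58.1 fit (R 4.3.3; trend and robust options) of log2(FPKM + 1) over all 24 libraries gave each comparison, with Benjamini-Hochberg adjustment at 0.05. Fold changes on that scale understate changes of low genes. No libraries were duplicates. The titles call the libraries of a group biological replicates; what they share is not given, so p-values measure the spread between these samples.

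The genes, the pathway and marker lists and the rule for named genes (for each pathway list and EMB comparison, the 2 genes per direction with the smallest adjusted p; for each of the 10, the 3 most correlated genes) were chosen with earlier results of these data known. Replicate numbers paired same-numbered libraries where every pair's deviations correlated above 0.1: vertebral GFP+ with GFP- in EMB+ (0.169 to 0.337) and EMB- cells (0.130 to 0.292), and EMB+ with EMB- in vertebral GFP- cells (0.135 to 0.236). Alternatives were other pseudocounts (0.1 and 5), filters, scalings, groups fitted, a replicate block and leaving out libraries.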

Additional observations from a re-analysis of the deposited data

Results flagged for a closer look

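In 2 of the 60 groups of 4 libraries (10 genes in 6 groups), 1 library stood apart from the other 3 by Dixon's criterion, which chance meets in about 1 of 20 groups. Fbln1 was at 16.5 FPKM in long bone EMB- replicate 4, against 13.1 to 13.6 FPKM in the other 3. Lox was at 68.8 FPKM in vertebral GFP- EMB+ replicate 3, against 52.3 to 55.0 FPKM in the other 3.

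The difference between EMB+ and EMB- cells itself differed between vertebral GFP+ and GFP- cells for Fbn2 (-1.01), Fbln1 (-1.15), Fbln5 (-0.92) and Loxl1 (-0.94, log2 scale, limma interaction, adjusted p under 0.05). Each was lower in GFP+ cells. It differed between vertebral GFP- and long bone cells for Eln (-3.43), Fbn1 (-1.10), Fbn2 (0.83), Fbln5 (0.90) and Efemp2 (-0.74).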

How the results depend on the processing

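Of the 110 differences (10 genes in 11 contrasts) 61 were called, and 43 of these kept call and direction under every alternative run; of the 49 not called, 22 were called under none. Among 3520 recomputed values 3352 kept direction and side of the threshold, 97 newly passed, 70 no longer passed and 1 reversed: Fbln1 in vertebral GFP- EMB+ against EMB- cells, at -0.087 with median-ratio scaling. The causes were not tested.

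Counts of elastic fibre genes called moved by over 1.5 times as follows. EMB+ against EMB- in long bone called 7, and 4 in a fit of the 2 groups alone. The same contrast in vertebral GFP- cells called 5, and 3 with a pseudocount of 5. GFP+ against GFP- in EMB- cells called 2, and 4 in a fit of the 2 groups alone and 6 with the replicate block. In EMB+ cells that contrast called 2 by limma, and 1 with the stricter filter, with quantile normalization, with median-ratio scaling and in a fit of the 2 groups alone. With a pseudocount of 5 it called 0, at adjusted p of 0.13 for Fbn2 and 0.053 for Loxl1.

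Leaving out 1 library gave 7 to 8 called genes for EMB+ against EMB- in vertebral GFP+, 3 to 7 in vertebral GFP- and 5 to 8 in long bone cells; 0 to 2 for GFP+ against GFP- in EMB+ and 2 in EMB- cells. Against long bone, vertebral GFP+ gave 7 to 8 in EMB+ and 6 to 7 in EMB- cells, and vertebral GFP- 5 to 9 and 7 to 9. The differences of EMB differences gave 4 to 6 (GFP+ and GFP-) and 5 to 7 (GFP- and long bone).

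Over all genes, EMB+ against EMB- in vertebral GFP+ cells called 5883, against 3329 with quantile normalization and 3248 with median-ratio scaling; in long bone it called 3942, against 2059 in a fit of the 2 groups alone. GFP+ against GFP- called 997 in EMB- cells, against 2175 with the replicate block, and 247 in EMB+ cells, against 136 with the stricter filter and 808 with the block. The difference of EMB differences called 573 between GFP+ and GFP- (1150 in the compared groups alone, 1850 with the block, 900 without long bone EMB- replicate 4) and 3503 between GFP- and long bone (2281 with median-ratio scaling).

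EMB+ and EMB- libraries of the GFP+ lineage did not pass the check for pairing (0.0971 to 0.279). With the block that contrast called Efemp1 (adjusted p = 0.0046) and Lox (1.7e-05) besides the 7, and the difference between GFP+ and GFP- called Fbn1 (0.0022) and Lox (6.8e-04). The block was fitted for contrasts among vertebral libraries alone, since the titles number all long bone EMB+ libraries alike. FPKM show no depth, so no counting error is given.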
